A study of Sus scrofa with 12 samples.

Results

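Collagen cross-linking enzymes were followed in border and remote zone samples of infarcted pig hearts. The genes were chosen by name, with earlier results of these data known. They were the 5 lysyl oxidases LOX, LOXL1, LOXL2, LOXL3 and LOXL4 and the transglutaminase TGM2. Each of these 6 genes had 1 identifier among the 35682 genes counted, and each passed the filter on low counts. RNA sequencing was performed on 12 libraries, 1 from the border zone and 1 from the remote zone of 6 female Yorkshire pigs, 10 to 12 weeks old at the start, named here by their animal numbers 1022, 1322, 1323, 1623, 1922 and 3622. In every animal the left anterior descending coronary artery was closed with a balloon for 60 min and then reperfused. Immunosuppression ran from day 9 in all animals and consisted of prednisolone at 20 mg/day, tacrolimus at 0.75 mg/kg/day and, as the other agent, mycophenolate mofetil at 500 mg/day. On day 14 the chest was opened and the heart received either sheets of human endothelial progenitor cells and smooth muscle cells (vascular organoids) with fibrin glue, or fibrin glue only. Hearts were taken 4 weeks later, the border zone as the section next to the infarct and the remote zone from the posterior wall, both labelled as mid. Treated and control animals were both sequenced, but the treatment of each animal was not used here and no treatment comparison was made. Whether grafted human cells gave some of the reads was not tested.

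Collagen and elastin gain tensile strength when neighbouring chains are joined by covalent bonds. Lysyl oxidases are secreted copper enzymes that oxidise lysine and hydroxylysine side chains of collagen and elastin, after which the chains react with each other on their own. TGM2, tissue transglutaminase, is unrelated to them and joins glutamine to lysine side chains, with fibronectin among its extracellular substrates. In the injured heart, cross-linked collagen is known for making scar tissue stiff and resistant to breakdown.

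The stretch that the 5 lysyl oxidases share, which codes for the histidines that hold the catalytic copper, is shown to identify the pig genes measured here and how alike they are. It was read from the spliced RefSeq coding sequences on Sscrofa11.1, 5′ to 3′, with the histidine codons in capitals. The coordinates are those of its first and last base, and in each of these genes the stretch crosses a boundary between coding exons.
LOX (gene chr2:125595115-125607026, minus strand; stretch chr2:125602675-125604429): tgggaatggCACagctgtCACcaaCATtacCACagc
LOXL1 (gene chr7:59481410-59505161, minus strand; stretch chr7:59486462-59486938): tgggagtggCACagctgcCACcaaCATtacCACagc
LOXL2 (gene chr14:7435861-7540699, minus strand; stretch chr14:7443796-7450558): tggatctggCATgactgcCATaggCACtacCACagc
LOXL3 (gene chr3:68498114-68516829, plus strand; stretch chr3:68515321-68515446): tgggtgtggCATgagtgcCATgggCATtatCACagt
LOXL4 (gene chr14:109571942-109593408, minus strand; stretch chr14:109577210-109578356): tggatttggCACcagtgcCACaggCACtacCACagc
LOX and LOXL1 had the same base at 34 of 36 positions of this stretch. LOXL2 and LOXL4 shared 31, LOXL2 and LOXL3 shared 29, and LOX and LOXL3 shared 23. TGM2 (gene chr17:41186765-41221686, minus strand) carries instead the stretch with its catalytic cysteine, whose codon is in capitals, within 1 coding exon at chr17:41203658-41203681.
TGM2: tacggccagTGCtgggtctttgct
Genes on the opposite strand overlap LOX, LOXL1 and LOXL3 in this annotation. The libraries were nondirectional, so reads from such overlaps cannot be told apart by strand.

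Library totals ran from 15130210 to 31618680 counts. The members were well covered, with the fewest counts for LOXL4 (17 to 320 per library) and the most for TGM2 (4188 to 23110). The border zone library of animal 1022 stood apart, with 59794 CPM (a count divided by the library's TMM-scaled total, from edgeR) summed over the 9 measured genes of a fibroblast and matrix list, against 11281 in the next border zone library, and with 6073.6 CPM over a cardiomyocyte list. For animal 3622 the border zone library had reads on 28024 genes from the smallest total, against 16932 to 20148 in the others. The tests and list counts are therefore also given without animal 1022. Defining heart muscle genes were present throughout, with TNNI3 at 1071.8 CPM or more and TNNT2 at 2356.8 CPM or more in every library.

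All 5 lysyl oxidases and TGM2 had their higher level in the border zone sample in 6 of 6 animals, which was so for 11.7% of the 13844 genes tested. The test was edgeR's quasi-likelihood test with region as the only term, which did not use the pairing of libraries by animal. Its p was adjusted over all genes tested by the Benjamini-Hochberg method. LOX, LOXL1 and LOXL2 rose with an adjusted p under 0.05, while LOXL3, LOXL4 and TGM2 did not pass. Of all genes tested, 2.07% were called, and 2.06% were called with a higher level at the border. The same 3 members were those whose lowest border zone library lay above the highest remote zone library, a pattern found in 1.99% of the genes tested. The median log2 fold change was 1.81 over the 6 members and 0.04 over all genes tested, and without animal 1022 the members had a median of 1.10 (all genes 0.05). In the fit with a replicate block for the animal, none of the 6 members passed, with adjusted p from 0.0564 for LOXL1 to 0.142 for TGM2, a fit that called 0.296% of all genes and 0.289% as higher. With the DESeq2 Wald test all 6 passed, and 8.48% of the 16688 genes with an adjusted p were called higher. Without animal 1022 the calls were the same 3 genes, and 1.14% of all genes tested were called higher. Without animal 1323, 1623, 1922 or 3622 none of the members passed, with an adjusted p for LOX of 0.110, 0.108, 0.0759 and 0.0839, and all log2 fold changes of the members were above 0. These fits called 0.0218%, 0%, 0.0999% and 0% of all genes higher, so the loss of calls was not particular to the members.

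**Figure D1:**
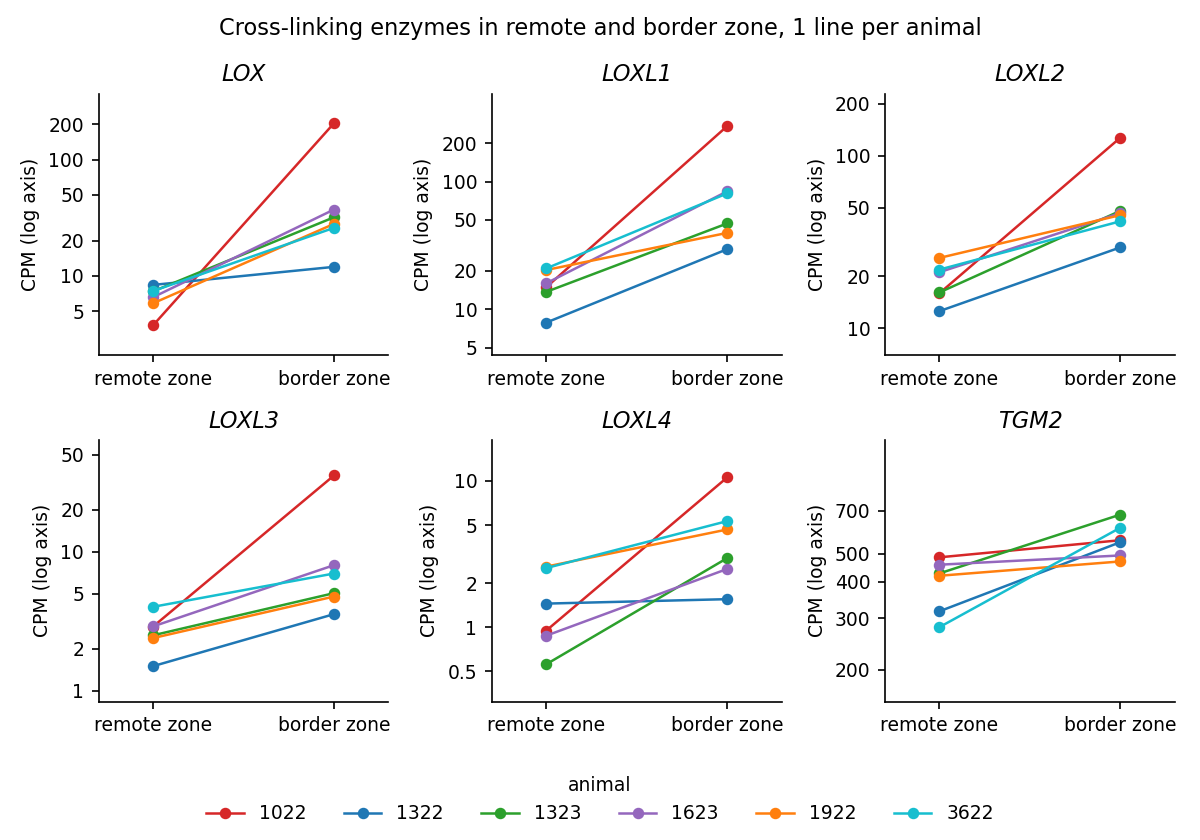
CPM (TMM-scaled, log axis) of each enzyme in the remote zone and the border zone, with 1 line per animal. Every line rises from the remote to the border zone, steeply in animal 1022 for the 5 lysyl oxidases and by between 1.08 and 2.19 times for TGM2.

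LOX, the founding member of the family, is made as a proenzyme and acts on both collagen and elastin. It had 3.76 to 8.38 CPM in the remote zone (median 6.97) and 12.0 to 205.1 CPM in the border zone (median 30.0). The groups did not overlap, and 60.3% of the CPM summed over the border zone came from animal 1022. The log2 fold change was 3.11 (standard error 0.60, adjusted p = 0.0276), and 2.38 with the animal block (standard error 0.58, adjusted p = 0.0798). Within animals the border zone level was 54.5 times that of the remote zone in animal 1022, 5.67 times in 1623, 4.81 in 1922, 4.33 in 1323, 3.49 in 3622 and 1.43 in 1322. Animal 1022 thus had both the highest LOX level in the border zone and the lowest in the remote zone. Without animal 1022 the log2 fold change was 1.92 (adjusted p = 0.00744).

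LOXL1, which is known for its part in elastic fibre upkeep, followed with 7.85 to 20.9 CPM in the remote zone (median 15.4) and 29.5 to 272.2 CPM in the border zone (median 63.9). The groups did not overlap. The log2 fold change was 2.57 (standard error 0.50, adjusted p = 0.0276), and 2.17 with the animal block (standard error 0.37, adjusted p = 0.0564). The ratio of border zone to remote zone was 18.3 in animal 1022, between 3.44 and 5.26 in animals 1322, 1323, 1623 and 3622, and 1.95 in animal 1922. Animal 1322, which had the lowest LOX ratio, had a LOXL1 ratio of 3.76. Without animal 1022 the log2 fold change was 1.83 (adjusted p = 0.0199).

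LOXL2 carries scavenger receptor domains in front of the catalytic part and is known to cross-link collagen IV of basement membranes. It had 12.6 to 25.6 CPM in the remote zone (median 18.7) and 29.5 to 127.8 CPM in the border zone (median 46.0). The groups did not overlap, and apart from animal 1022 the border zone libraries lay close together, from 29.5 to 48.1 CPM. The log2 fold change was 1.58 (standard error 0.32, adjusted p = 0.0312), and 1.43 with the animal block (standard error 0.28, adjusted p = 0.0679). Without animal 1022 it was 1.11 (adjusted p = 0.0228). Its standard deviation on the log2 scale over the border zone libraries of all animals was 0.71, against a median of 0.47 over all genes tested. Without animal 1022 the standard deviation of LOXL2 was 0.29, and no median over all genes was computed for those libraries.

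LOXL3 and LOXL4, which have the same domain layout as LOXL2, were the least abundant. LOXL3 had 1.5 to 4.01 CPM in the remote zone (median 2.70) and 3.56 to 35.3 CPM in the border zone (median 6.0). Its groups overlapped only through animals 1322 and 3622, the border zone level of the former being below the remote zone level of the latter. The log2 fold change was 1.98 (standard error 0.53, adjusted p = 0.0605), and 1.09 without animal 1022 (adjusted p = 0.111). HTRA2, a mitochondrial protease gene that overlaps LOXL3 on the opposite strand, had a log2 fold change of -0.21 (adjusted p = 0.371). LOXL4 had 0.560 to 2.60 CPM in the remote zone (median 1.2) and 1.56 to 10.6 CPM in the border zone (median 3.82), with overlapping groups. Its log2 fold change was 1.64 (standard error 0.50, adjusted p = 0.0850), and 1.10 without animal 1022 (adjusted p = 0.257). In animal 1322 the LOXL4 ratio was 1.07, from 32 and 30 counts, and in the other animals it was between 1.79 and 11.13.

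TGM2 differed from the lysyl oxidases in level and in which animals had the larger differences. It had 280.0 to 485.5 CPM in the remote zone (median 423.7) and 470.0 to 680.2 CPM in the border zone (median 551.5), and the groups overlapped. The log2 fold change was 0.49 (standard error 0.19, adjusted p = 0.136). The ratio of border zone to remote zone was 2.19 in animal 3622, 1.73 in 1322, 1.59 in 1323 and between 1.08 and 1.14 in 1022, 1623 and 1922. The 3 animals with the larger differences did not include animal 1022. The remote zone library of animal 3622 had the lowest TGM2 level, and it also had the highest share of counts on mitochondrial genes, 33.5%, against 5.69% to 21.4% in the others. The remote zone library of animal 1322 had the next lowest TGM2 level, 317.2 CPM, and the next highest share, 21.4%. With mitochondrial genes left out of the edgeR fit the TGM2 log2 fold change was 0.50 (adjusted p = 0.127). The part of these shares in the TGM2 difference was not tested. Without animal 3622 the log2 fold change was 0.38 (adjusted p = 0.318), and with library totals in place of TMM it was 0.75 (adjusted p = 0.0602) while the median of all genes moved from 0.04 to 0.32.

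**Figure D2:**
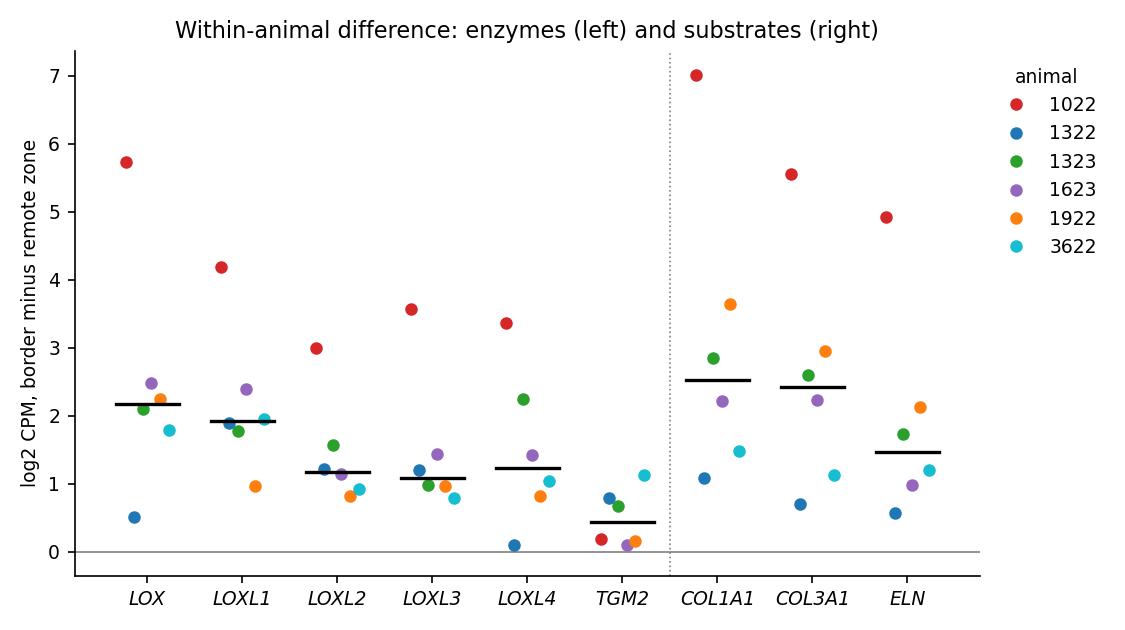
Difference of log2 CPM, border zone minus remote zone, within each of 6 animals (points) with the median (bar), for the 6 enzymes and for the substrates COL1A1, COL3A1 and ELN. Animal 1022 is the highest point for each gene shown but TGM2, and all points lie above 0.

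Levels were compared between genes per kilobase of RefSeq exon length. TGM2 was the highest in both regions, with a median of 107.6 CPM per kb in the remote zone and 140.1 in the border zone. In the border zone of animal 1022 LOX reached 129.8 CPM per kb, within the TGM2 range of 119.4 to 172.8. In the remote zone LOXL1 (median 6.28 CPM per kb), LOXL2 (4.99) and LOX (4.41) followed, with overlapping ranges between neighbours. LOXL3 (0.600) and LOXL4 (0.329) were at the end and overlapped each other. In the border zone the order was LOXL1 (26.1), LOX (19.0), LOXL2 (12.3), LOXL3 (1.34) and LOXL4 (1.05), so LOX stood before LOXL2, in 5 of 6 libraries. LOXL1 was above LOX in 3 of 6 border zone libraries by exon length and in 5 of 6 by coding length (medians 35.98 and 23.8), and their ranges overlapped by both. The RefSeq model of LOX is short, with 1580 bases of exon of which 1260 are coding, and a longer model would lower its place per kb.

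The mix of the 5 lysyl oxidases differed between the regions. The share of LOX in their summed counts per kb was 17.5% to 42.1% in the remote zone (median 23.4%) and 25.8% to 45.4% in the border zone (median 34.5%), and it was the higher of both regions in 5 of 6 animals. Animal 1322 was the exception, with 42.1% in the remote zone and 26.4% in the border zone. The share of LOXL2 was 26.7% to 34.2% in the remote zone (median 29.9%) and 12.0% to 27.5% in the border zone (median 20.7%), lower in the border zone of 5 of 6 animals, again all but 1322. LOXL1 held a median of 39.5% in the remote zone and 40.4% in the border zone. LOXL3 held at most 4.72% and LOXL4 at most 3.55% of any library. These shares were not tested. The sum of the family per kb was 12.6 to 20.7 CPM per kb in the remote zone and 28.7 to 285.8 in the border zone. Within animals it was 21.0 times higher in the border zone of animal 1022 and between 2.28 and 4.23 times higher in the other 5.

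**Figure D3:**
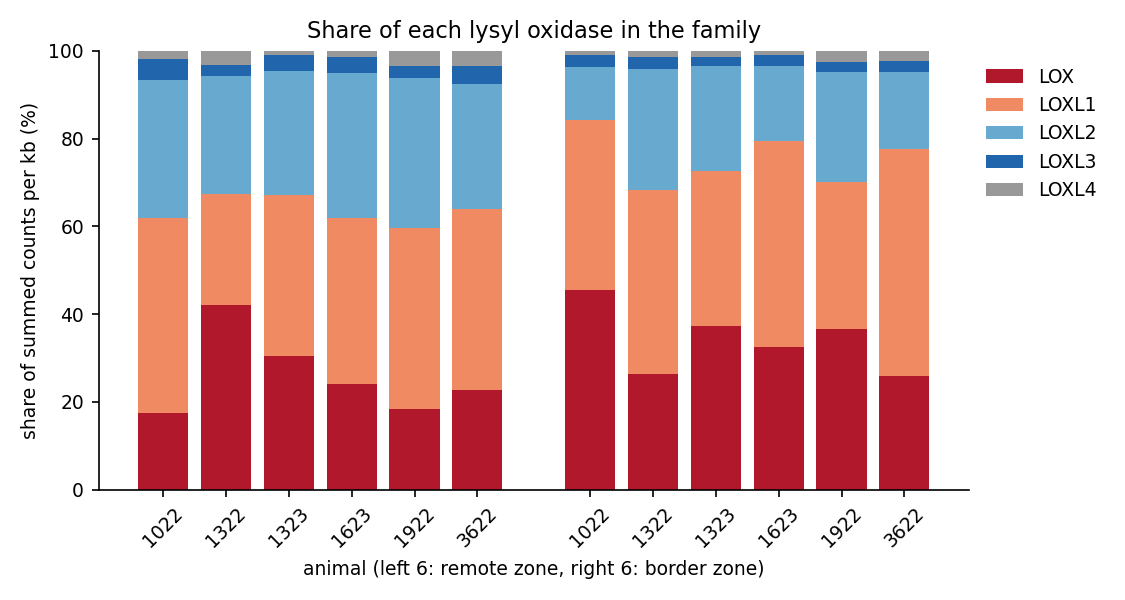
Share of each lysyl oxidase in the summed counts per kb of RefSeq exon length (%), by library, with the 6 remote zone libraries on the left and the 6 border zone libraries on the right. LOX takes a median of 23.4% in the remote and 34.5% in the border zone, and LOXL2 29.9% and 20.7%.

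The substrates of these enzymes were measured beside them. COL1A1, the main chain of collagen I, had 235.3 to 680.9 CPM in the remote zone and 877.9 to 30498 CPM in the border zone, and the log2 fold change was 4.05 (standard error 0.81, adjusted p = 0.0295). ELN, the gene of elastin, had 38.9 to 95.5 CPM in the remote zone and 99.3 to 1188.8 CPM in the border zone, with a log2 fold change of 2.46 (adjusted p = 0.0421). COL1A1 and ELN did not overlap between the groups. Animal 1022 set both upper ends, with 4009.3 CPM of COL1A1 and 267.0 CPM of ELN in the next border zone library. Without that animal the log2 fold changes were 2.37 for COL1A1 (adjusted p = 0.0104) and 1.36 for ELN (adjusted p = 0.0313). The within-animal log2 difference of LOX minus that of COL1A1 had a median of -0.66 and was below 0 in 4 of 6 animals, while LOX minus ELN had a median of 0.48 and was below 0 in 1 of 6. Against COL3A1 it was below 0 in 3 of 6 animals. LOXL4 and TGM2 differed less than COL1A1 in 6 of 6 animals, with medians of -0.89 and -2.15. These differences between genes were not tested.

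Of the 10 genes of the collagen and elastin list, 9 were tested, 6 were called higher (COL1A1, COL1A2, COL3A1, COL5A1, COL5A2 and ELN) and 0 lower, with a median log2 fold change of 2.93. COL4A1 and COL4A2, the basement membrane chains, had log2 fold changes of 0.81 and 0.58, and with COL5A3 (1.52) they did not pass. Without animal 1022 these were 0.45, 0.29 and 0.91. With the animal block 0 of the 9 passed. Without animal 1022 the same 6 genes passed, with a median of 1.75. Without animal 1323, 1623, 1922 or 3622 no gene of this or of any other list passed. Of 12 tested partners in processing and assembly, 5 were called higher and 0 lower. These were FN1, the fibronectin gene (log2 fold change 5.09), FMOD, a small proteoglycan that binds collagen (4.83), POSTN, a matricellular protein of healing tissue (3.44), ADAMTS2, the procollagen N-proteinase (2.52), and PCOLCE, the enhancer of the procollagen C-proteinase (1.81). POSTN alone of these passed with the block (adjusted p = 0.041). Without animal 1022 PCOLCE did not pass (adjusted p = 0.107), and FN1 and FMOD had log2 fold changes of 2.71 and 2.90. BMP1, the protease that cuts the LOX proenzyme, had a log2 fold change of 1.44 and an adjusted p = 0.0501, and THBS1, which did not pass either, had 2.25 (1.11 without animal 1022). FBLN5, an elastic fibre protein, was the only negative value (-0.25, lower in the border zone of 6 of 6 animals, adjusted p = 0.334).

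Lysine hydroxylation decides which cross-links collagen can form. The list of 8 tested genes holds lysyl hydroxylases, collagen chaperones and galactosyltransferases. Of these genes, 2 were called higher and 0 lower, with a median log2 fold change of 0.80 (0.46 without animal 1022). They were FKBP10, a chaperone that aids the telopeptide hydroxylase (2.17, adjusted p = 0.0427), and COLGALT2, a collagen galactosyltransferase (1.31, adjusted p = 0.0356). Neither passed with the animal block (adjusted p = 0.0925 and 0.0564), and without animal 1022 FKBP10 passed (1.25, adjusted p = 0.049) and COLGALT2 did not (1.31, adjusted p = 0.0893). PLOD2, the telopeptide lysyl hydroxylase, had a log2 fold change of 1.89 (adjusted p = 0.0501) and 8.72 to 72.5 CPM in the border zone against 4.63 to 9.58 in the remote zone. Without animal 1022 PLOD2 had 1.21 (adjusted p = 0.0785) and at most 24.2 CPM. PLOD1 and PLOD3 did not pass and had 0.56 and 0.65, and 0.31 and 0.32 without that animal. The copper supply genes, which take up copper and carry it within the cell, gave 0 calls among 7 tested and a median of 0.02. ATP7A, the copper pump of the Golgi, was the highest of them at 0.38 (adjusted p = 0.330), and CCS, the copper chaperone of superoxide dismutase, was the lowest at -0.33 (adjusted p = 0.174).

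Among regulators in the TGF-beta and hypoxia list, 1 of 15 was called higher. This was TGFB3, a TGF-beta ligand, with 8.47 to 16.1 CPM in the remote zone, 27.3 to 164.8 CPM in the border zone and 2.43 as its log2 fold change (standard error 0.36, adjusted p = 0.0123). With the block the adjusted p was 0.0564, and without animal 1022, after which the highest border zone value was 65.0 CPM, the log2 fold change was 1.85 (adjusted p = 0.00478). The groups did not overlap. TGFB1 had 46.8 to 72.3 CPM in the remote zone, 46.1 to 120.4 CPM in the border zone and a log2 fold change of 0.26 (adjusted p = 0.475). CCN2, a TGF-beta target, had 2.31 (adjusted p = 0.0588), HIF1A, the oxygen-regulated subunit of hypoxia-inducible factor, 0.34 (adjusted p = 0.303), and SMAD4, the shared SMAD, -0.08 (adjusted p = 0.859). Without animal 1022 TGFB1 had -0.01 and SMAD4 0.01. Of the partners of extracellular TGM2, FN1 was the 1 gene called among 5 tested, ITGB3 had 2.39 (adjusted p = 0.0876, and 0.80 as the log2 fold change without animal 1022) and ADGRG1, a receptor that binds TGM2, had -0.12 (adjusted p = 0.777, and -0.25 without that animal). Of the other transglutaminases only TGM5 (-0.49, adjusted p = 0.460) and F13A1, the A chain of clotting factor XIII (1.11, adjusted p = 0.135, and 0.48 as the log2 fold change without animal 1022), were abundant enough to test.

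**Figure D4:**
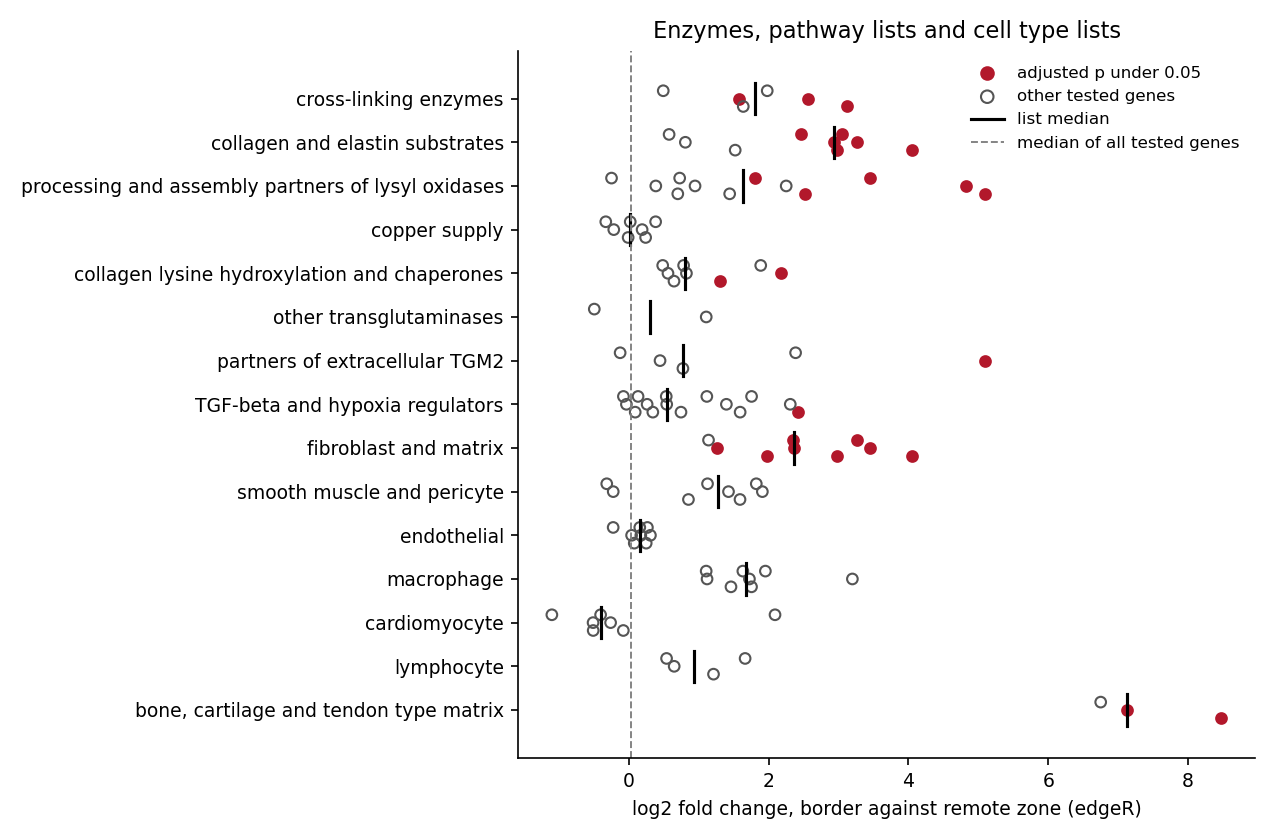
Log2 fold change of the 6 enzymes and of each tested gene of the lists, border against remote zone by edgeR, with genes past an adjusted p of 0.05 filled, list medians as bars and the median of all genes tested (0.04) as a dashed line. The median of the enzymes, 1.81 (1.10 without animal 1022), lies between those of the copper supply genes, 0.02 (0.03), and the collagen and elastin genes, 2.93 (1.75).

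Lists of cell type markers were compared between the regions. Calls and medians are over tested genes, while summed CPM covers every listed gene with an identifier. In the fibroblast and matrix list 8 of 9 tested genes were called higher (median log2 fold change 2.37), and their sum was 2969.4 to 59794 CPM at the border and 1032 to 2569.5 CPM in remote tissue. With the animal block 1 of the 9 passed, POSTN, and without animal 1022 7 passed, with a median of 1.70. This list shares COL1A1, COL1A2 and COL3A1 with the substrates. In the macrophage list 0 of 8 were called (median 1.68, summed CPM 120.9 to 1542.5 at the border and 110.1 to 213.0 in remote tissue), and in the smooth muscle and pericyte list 0 of 8 (median 1.28, 562.6 to 2843.8 and 343.7 to 648.4). In the endothelial list 0 of 8 were called (median 0.16, 370.2 to 555.2 and 271.6 to 625.9) and in the lymphocyte list 0 of 4 (median 0.93, 7.5 to 79.9 and 6.50 to 15.0). The cardiomyocyte list had 0 of 7 called, a median of -0.40 and a summed CPM that was lower in the border zone of 6 of 6 animals (6073.6 to 36422 against 28477 to 46642). Of the 3 tested genes of the bone, cartilage and tendon list COL11A1 and SPP1 were called (median 7.13, 14.1 to 3487.2 and 0.484 to 10.4). Neither passed with the animal block (adjusted p = 0.0773 and 0.0830) or without animal 1022 (adjusted p = 0.0782 and 0.0581). Animal 1022 set the upper end of the border zone sum of every marker list but the cardiomyocyte list, where it set the lower end. The next library had 11281 CPM for fibroblasts and matrix, 483.3 for endothelium, 342.9 for macrophages, 938.3 for smooth muscle and pericytes, 25.2 for lymphocytes and 409.1 for bone, cartilage and tendon. Without that animal the median was 0.65 for macrophages, 0.70 for smooth muscle and pericytes, 0.61 for lymphocytes, 4.30 for bone, cartilage and tendon, -0.01 for endothelium and -0.23 for cardiomyocytes. Among markers that did not pass, the highest log2 fold changes were those of DCN (1.14) for fibroblasts, COMP (6.75) for bone, cartilage and tendon, and CD68 (3.20), ACTA2 (1.91), PTPRC (1.66) and ERG (0.31) for macrophages, smooth muscle, lymphocytes and endothelium. Without animal 1022 these were 0.84, 3.70, 1.31, 0.60, 0.87 and 0.10. In the cardiomyocyte list NPPA, the gene of atrial natriuretic peptide, had 2.09 (adjusted p = 0.123) and was higher at the border of 4 of 6 animals, while TNNI3, cardiac troponin I, had -1.10 (adjusted p = 0.148) and was higher there in 0 of 6. The lowest values of the smooth muscle and endothelial lists were those of KCNJ8 (-0.32) and ESAM (-0.22), neither of which passed. Without animal 1022 KCNJ8 had -0.16 and ESAM -0.29, and RGS5 (-0.23) was then the lowest of the smooth muscle list. No listed marker with an identifier was at 0 in all libraries. In bulk tissue, fewer cells of a type and less RNA per cell cannot be told apart, and the part of the cell mix in the differences of the enzymes was not tested.

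The lysyl oxidases varied together across the 12 libraries, which share animals and regions. Pearson's r of log2 CPM between LOX, LOXL1, LOXL2 and LOXL3 was between 0.909 and 0.968 over all 12 libraries, and between 0.824 and 0.965 over the 10 libraries without animal 1022. For LOXL4 with these genes it was 0.784 to 0.859, and for TGM2 with the lysyl oxidases 0.329 to 0.609. Without animal 1022 these were 0.628 to 0.739 and 0.295 to 0.728, so the values of LOXL4 and TGM2 overlapped. Within the 6 remote zone libraries LOXL1 and LOXL2 had an r of 0.918, while LOX had an r of -0.319 with LOXL1 and -0.130 with LOXL2. Within the 6 border zone libraries, among them that of animal 1022, which stood apart, r between the lysyl oxidases was 0.803 to 0.995. Without that library r within the border zone was not computed. For TGM2 with the lysyl oxidases it was -0.015 to 0.037 within the border zone and -0.676 to 0.117 within the remote zone, so the pooled values of TGM2 did not hold within either region. These are descriptions over few libraries, and no test was made.

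The genes with the pattern most like each enzyme were ranked by r among 11725 genes with a symbol. For LOX they were SPARC (r = 0.990), a collagen-binding glycoprotein, PRELP (0.988), COL5A2 (0.986), ADAM12 (0.984) and COL1A1 (0.983). For LOXL1 they were THBS3 (0.987), ARSI (0.985), COL8A1 (0.982), CHPF (0.976) and CTHRC1 (0.974). For LOXL2 they were ADAMTS2 (0.976), FBN1 (0.976), the fibrillin of microfibrils, SH3D19 (0.974), FSTL1 (0.973) and ARSI (0.969). For LOXL3 they were ADCY7 (0.974), MYOF (0.974), PPT1 (0.973), SNX7 (0.973) and CABLES1 (0.972). LOXL4 was nearest to DBN1 (0.953), ZNF385A (0.945), TCFL5 (0.942), COL5A3 (0.941) and MMP19 (0.938), and TGM2 to TIAM2 (0.940), TMF1 (0.925), BRWD3 (0.903), SMARCAD1 (0.9) and REL (0.897). An r over 0.9 was reached by 503 genes for LOX, 243 for LOXL1, 268 for LOXL2, 406 for LOXL3, 47 for LOXL4 and 4 for TGM2, and without animal 1022 by 135, 59, 56, 50, 14 and 24. The order among the nearest genes is therefore loose.

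**Figure D5:**
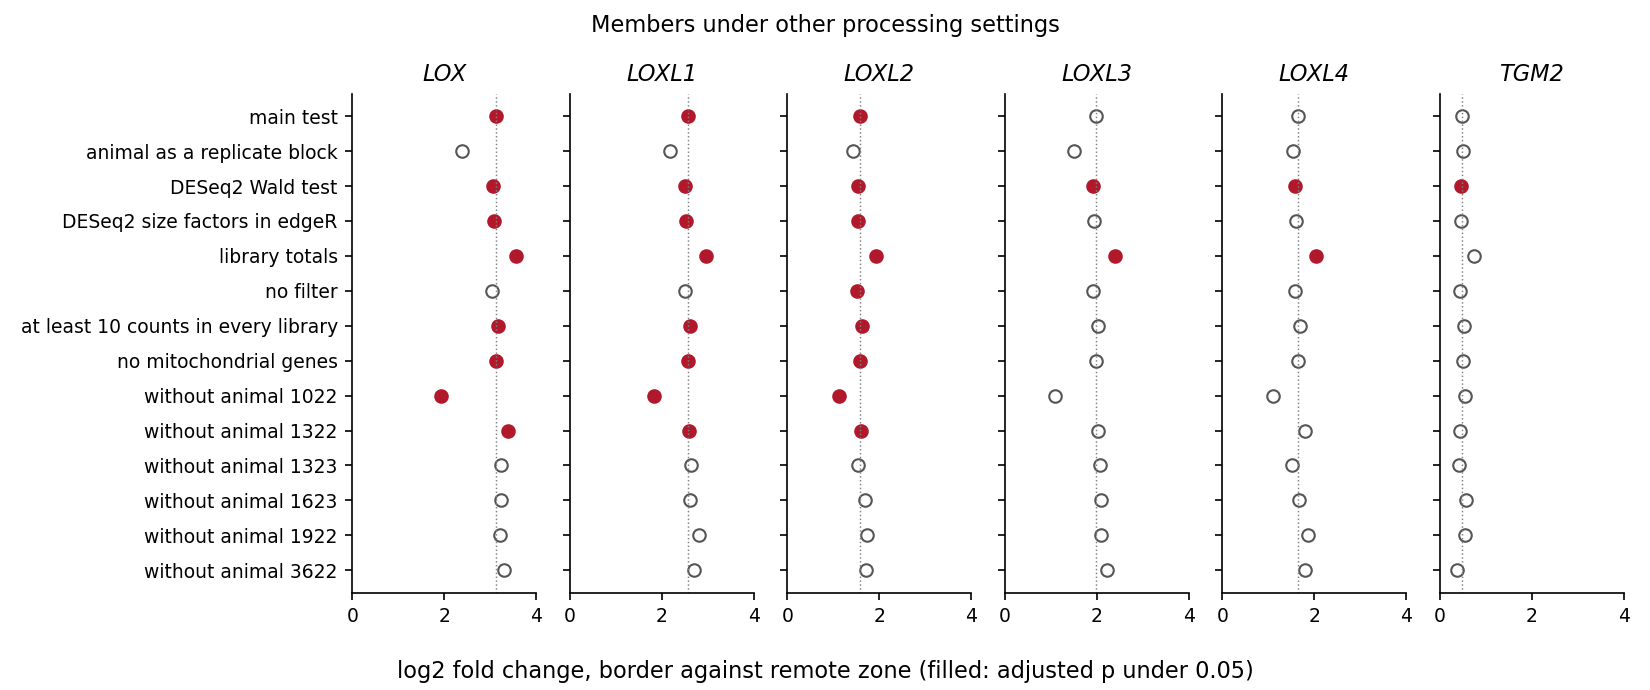
Log2 fold change of each enzyme, border against remote zone, in the main test and in 13 other settings, filled where the adjusted p was under 0.05. All values lie above 0, LOX, LOXL1 and LOXL2 lose the call with the animal as a block and without animal 1323, 1623, 1922 or 3622 (LOX and LOXL1 also without a filter), and TGM2 is filled only with the DESeq2 Wald test.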

How the data were processed

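From tissue of both zones the authors prepared libraries of poly(A) RNA that do not mark strand, aligned paired reads to Sscrofa11.1 with STAR and counted them per Ensembl gene with featureCounts. The deposited values are raw counts without normalization. How reads matching several genes or places were treated is not given in the sources used here. Region and animal came from the sample titles. Whether libraries were prepared in batches is not given.

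The fits were made with edgeR 4.0.16 (filterByExpr, TMM, robust quasi-likelihood test, region as the only term, adjusted p under 0.05) and DESeq2 1.42.0, in R 4.3.3. Standard errors were obtained by dividing a log2 fold change by the root of its F. Log2 CPM used a prior count of 2. Symbols were available for 15623 identifiers, and THY1, MYH7, SDC4, LRP1, TXN and TGM4 had none and were not analysed here. Lengths, positions and sequences came from RefSeq on Sscrofa11.1, while the counts used Ensembl models. Sequences were handled in Python 3.11.15 with Biopython 1.88.

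The members and lists were chosen with earlier results of these data known. By rule the members were named, with up to 4 genes of each list past the threshold, the largest rise and fall among the others, COL1A1, COL3A1 and ELN, and the 5 genes most like each member. Any other gene was named for its role or position after its values were seen. Libraries with the same number are 1 animal, which pairs them. The 2 libraries of an animal deviated from their region's means with r over 0.1 across genes in 4 of 6 pairs (mean 0.345). No 2 libraries agreed within sampling noise. The steps were tested on simulated data. Alternatives were the animal as a block, DESeq2, other scaling, other filters, no mitochondrial genes and each animal left out. Coding length, and the lists with each animal left out, were alternatives chosen after seeing the data.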

Additional observations from a re-analysis of the deposited data

Results flagged for a closer look

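The levels of the 6 enzymes and the shares of the 5 lysyl oxidases in each region, 22 groups of 6 libraries, were searched for a library whose gap to its nearest neighbour was large against the range of the group. About 1 in 20 groups would show this by chance, and 2 were found, both in the border zone library of animal 1022. LOXL2 had a log2 CPM of 7.0 there, with 5.59 in the next border zone library. LOXL3 had 5.15, with 3.01 in the next. No cause was tested, and the values of this library for the cell type lists stand in the report.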

How the results depend on the processing

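All 6 members had a log2 fold change above 0 in each of 13 alternatives. With the animal as a replicate block LOX (2.38), LOXL1 (2.17) and LOXL2 (1.43) lost the call, and without a filter LOX (3.05) and LOXL1 (2.499) did, with more genes tested. LOXL3 and LOXL4 gained the call with the DESeq2 Wald test (1.92 and 1.58) and with library totals (2.40 and 2.05), and TGM2 with the DESeq2 Wald test (0.45). The cause was not tested. Leaving out each animal gave a log2 fold change of 1.92 to 3.39 for LOX, 1.83 to 2.81 for LOXL1 and 1.11 to 1.74 for LOXL2 (adjusted p by edgeR 0.00744 to 0.110, 0.0199 to 0.108 and 0.0228 to 0.128), and 1.09 to 2.22 for LOXL3, 1.10 to 1.86 for LOXL4 and 0.38 to 0.58 for TGM2.

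Over all genes tested the log2 fold change had a median of 0.04, which was 0.32 with library totals, 0.45 with DESeq2 and 0.75 without a filter, the last 2 over more genes. The count of genes called, 287 of 13844, was 41 with the replicate block, 1724 with the DESeq2 Wald test, 1551 with library totals, 139 without a filter and 149 where every library had to hold 10 counts. It ranged from 0 to 519 over the fits without 1 animal (163 without 1022, 519 without 1322, 3 without 1323, 15 without 1922). By edgeR it was 0 without animal 1623 or 3622, and an unadjusted p under 0.05 was then reached by 2662 and 2448 genes. The median within-animal differences moved by less than their range over animals under other prior counts and library totals. With library totals they were higher for every member, for TGM2 0.73 against 0.43, for LOXL3 1.46 against 1.09 and for LOXL1 2.33 against 1.92. With coding length the median share of LOXL3 was 3.46% in the border zone and 5.09% in the remote zone, and that of LOXL2 in the remote zone 33.1%. Of the 5 genes most like each member, 0 remained for LOX and LOXL3 with Spearman's rho, 3 for LOXL1 and 1 each for LOXL2, LOXL4 and TGM2. Without animal 1022, 2 remained for LOX, 4 for LOXL1, 3 for LOXL2, 0 for LOXL3 and 1 each for LOXL4 and TGM2. Of listed genes called higher, the substrates had 0 to 6 without 1 animal and 0 with the replicate block (6 in the main test), the partners 0 to 6 and 1 (5), hydroxylation 0 to 3 and 0 (2), TGM2 partners 0 to 1 and 0 (1), regulators 0 to 2 and 0 (1), fibroblast genes 0 to 8 and 1 (8) and bone, cartilage and tendon genes 0 to 2 and 0 (2). The remaining lists had 0 in each of these fits. Each library gave LOXL4 at most 320 counts and at least 17, which limits single ratios.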

Other observations

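Most other transglutaminases were near or at 0 in these hearts. At the border of animal 3622, in the library with reads on 28024 genes, TGM6 had 51 counts (3.12 CPM), TGM7 had 7 counts and F13B had 1. Beyond 2 counts of TGM7 at the border of animal 1623, these genes had 0 counts in the other libraries. No cause was tested.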
